A study of Mus musculus with 20 samples.

Results

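Liver transcripts were examined for a response to corticosterone (CORT) that differed between mice given an antibody against acyl-CoA binding protein (ACBP, also known as diazepam binding inhibitor, DBI) and mice given an isotype control antibody. The measure is the interaction, which is the log2 change with CORT under the antibody minus the log2 change with CORT under the isotype control. All 20 livers of the series and all 48440 genes of the count table entered, and 16071 genes passed edgeR's filter on low counts and were tested. The groups were Isotype + Vehicle (labelled IgG_Veh), Isotype + CORT (IgG_CORT), αACBP + Vehicle (DBI_Veh) and αACBP + CORT (DBI_CORT), with 5 livers of separate mice in each. All mice were wild-type females, 8 weeks old and of strain C57BL/6 according to the labels. They received CORT or vehicle in the drinking water together with repeated intraperitoneal injections of a monoclonal antibody to ACBP, a homemade clone, or of an IgG2a isotype control, and the livers were collected at the end of week 5. Every mouse was injected with an antibody, so that no group shows an uninjected liver. A positive interaction means that CORT raised a transcript more, or lowered it less, with αACBP than with isotype.

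CORT is the main glucocorticoid of mice. It enters cells and binds the glucocorticoid receptor, which then activates genes such as Fkbp5 and represses many genes of inflammation, antigen presentation and interferon signalling. ACBP binds activated fatty acids inside cells and acts outside them as a peptide messenger that stimulates feeding and lipid storage, and the antibody captures the extracellular protein. The liver combines hepatocytes, which carry out lipid, glucose and amino acid metabolism under the control of nuclear receptors and of the circadian clock, with resident macrophages (Kupffer cells), lymphocytes, stellate cells and endothelium.

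Totals on genes ranged from 14934926 to 20299999 counts per liver, and 3 counts amounted to at most 0.205 CPM (a gene's count relative to library size after edgeR's TMM scaling, which evens out composition between libraries), a floor that covers counting error only. No 2 livers were near-identical: in 40 pairs from the same group, chi-square divided by its degrees of freedom was at least 12.4. The 12 hepatocyte markers in the table were counted in every group, with median sums of 116483 to 159639 CPM. The lowest sum of a single liver was 52656 CPM, in the αACBP + Vehicle group, while every liver of the other groups had at least 95460 CPM. Replicate 5 of the αACBP + Vehicle group stood apart with a TMM factor of 1.29, against 0.997 to 1.08 in the other 4 livers of its group. Replicate 5 of the αACBP + CORT group stood apart in its clock genes. Over 19 such genes it differed from the mean of the αACBP + Vehicle livers by 0.457 on average on the log2(CPM + 1) scale, and from the rest of its own group by 1.49. The other 4 livers of its group differed from the αACBP + Vehicle mean by 1.42 to 1.93. Each differed from the mean of the rest of the group, replicate 5 included, by 0.508 to 0.689. Values without both of these livers, a choice made after seeing the data, are given beside the results that they change.

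Sequences upstream of 5 genes of the interferon and clock lists are shown here because their windows hold the motifs described. They were chosen after the matches had been seen. Each is the 250 bases before the annotated start of the gene, from RefSeq on GRCm38.p6, written in the direction of transcription. The first pair belongs to interferon targets, and capitals mark matches to GAAANNGAA, the core of the interferon-stimulated response element, searched on both strands. Ifit3 lies at chr19:34583279-34583528, plus strand, and Rsad2 at chr12:26456453-26456702, minus strand.
Ifit3: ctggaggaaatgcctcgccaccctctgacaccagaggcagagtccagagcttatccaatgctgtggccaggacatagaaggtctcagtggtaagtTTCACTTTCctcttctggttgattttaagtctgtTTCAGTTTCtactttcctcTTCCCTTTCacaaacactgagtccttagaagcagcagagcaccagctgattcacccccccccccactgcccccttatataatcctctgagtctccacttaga
Rsad2: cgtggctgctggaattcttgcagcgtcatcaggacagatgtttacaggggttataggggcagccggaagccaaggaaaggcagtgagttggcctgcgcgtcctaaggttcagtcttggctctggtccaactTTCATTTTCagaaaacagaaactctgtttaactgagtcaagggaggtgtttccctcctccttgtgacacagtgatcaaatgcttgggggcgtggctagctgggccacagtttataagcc
The next pair belongs to clock output genes, and capitals mark the E-box CACGTG, at which the clock activator pair BMAL1 and CLOCK binds. Ciart lies at chr3:95882229-95882478, minus strand, and Tef at chr15:81802423-81802672, plus strand.
Ciart: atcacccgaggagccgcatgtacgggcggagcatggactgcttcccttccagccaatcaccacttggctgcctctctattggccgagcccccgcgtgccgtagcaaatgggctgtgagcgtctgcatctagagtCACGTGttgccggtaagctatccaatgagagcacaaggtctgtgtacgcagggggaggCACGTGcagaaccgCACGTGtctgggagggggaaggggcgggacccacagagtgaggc
Tef: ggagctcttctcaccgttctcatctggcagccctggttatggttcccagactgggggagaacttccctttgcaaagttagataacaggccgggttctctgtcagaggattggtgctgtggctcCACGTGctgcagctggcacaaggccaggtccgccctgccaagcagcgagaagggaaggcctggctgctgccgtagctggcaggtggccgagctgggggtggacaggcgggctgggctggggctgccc
The last belongs to Nfil3 (chr13:52981040-52981289, minus strand), and capitals mark TAGGTCA, the core bound by the clock receptors of the ROR and REV-ERB families, here on the opposite strand.
Nfil3: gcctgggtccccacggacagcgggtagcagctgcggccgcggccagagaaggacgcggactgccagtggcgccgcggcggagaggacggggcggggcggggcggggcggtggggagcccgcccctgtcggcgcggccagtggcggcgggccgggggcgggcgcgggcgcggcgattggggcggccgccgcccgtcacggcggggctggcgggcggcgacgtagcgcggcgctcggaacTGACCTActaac
The interferon core stood 3 times in the Ifit3 window and 1 time in the Rsad2 window. It was found in 11 of 20 type I interferon targets with a sequence and in 14 of 17 interferon-gamma targets, against 8.18% of 27025 genes with such a window. The E-box stood 3 times in the Ciart window and 1 time in the Tef window, and in 5 of 16 clock genes, against 6.86% of all genes. TAGGTCA was present in 1 of 16 clock genes, Nfil3 itself, against 2.55% of all genes. Of the genes whose interaction passed the limits given below, 15 had such a window. Each motif was found in 1 of them (6.67%), the interferon core in Ifit3, the E-box in Cbs and TAGGTCA in Nfil3. The motifs are therefore not read as a mark of the genes with an interaction. These matches describe the letters only, and binding was not measured.

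The interaction passed an adjusted p of 0.05 (edgeR's quasi-likelihood test, Benjamini-Hochberg adjustment over all genes tested) and an absolute log2 value of 1 for 23 genes, which is 0.143% of those tested. Of these, 16 were positive (0.0996%) and 7 negative (0.0436%). They span a nuclear receptor for fatty acids (Ppard), enzymes and proteases of mitochondria (Adck3, Clpx), inhibitors of transcription (Id1, Id3, Nfil3), antigen presentation and interferon targets (H2-Ab1, Ifit3, Ifi27l2a), a macrophage gene (Mpeg1) and glycogen synthesis (Gys2). At an unadjusted p of 0.05 and the same log2 limit, 791 genes passed, or 4.92%, and 493 of them were positive (3.07%) and 298 negative (1.85%). By comparison, CORT changed 312 genes under isotype (1.94%), 82 higher (0.51%) and 230 lower (1.43%), and 34 genes under αACBP (0.212%), 27 higher (0.168%) and 7 lower (0.0436%). These arm counts also moved with single livers: leaving out 1 liver gave 205 to 421 calls under isotype and 5 to 153 under αACBP, and voom gave 242 and 155. The 2 arms share no liver, and across the 16071 genes their log2 changes had a Pearson r of 0.16 and a Spearman rho of 0.18, values across genes that are not independent replicates. Of the genes called, 7 passed in both arms, which is 2.24% of those called under isotype and 20.6% of those called under αACBP. Cd36, G0s2, Sort1, Gnat1, BC048546 and Gm10680 changed in the same direction in both, and Ppard in opposite directions. These other 6 genes were named after their values had been seen.

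**Figure D1:**
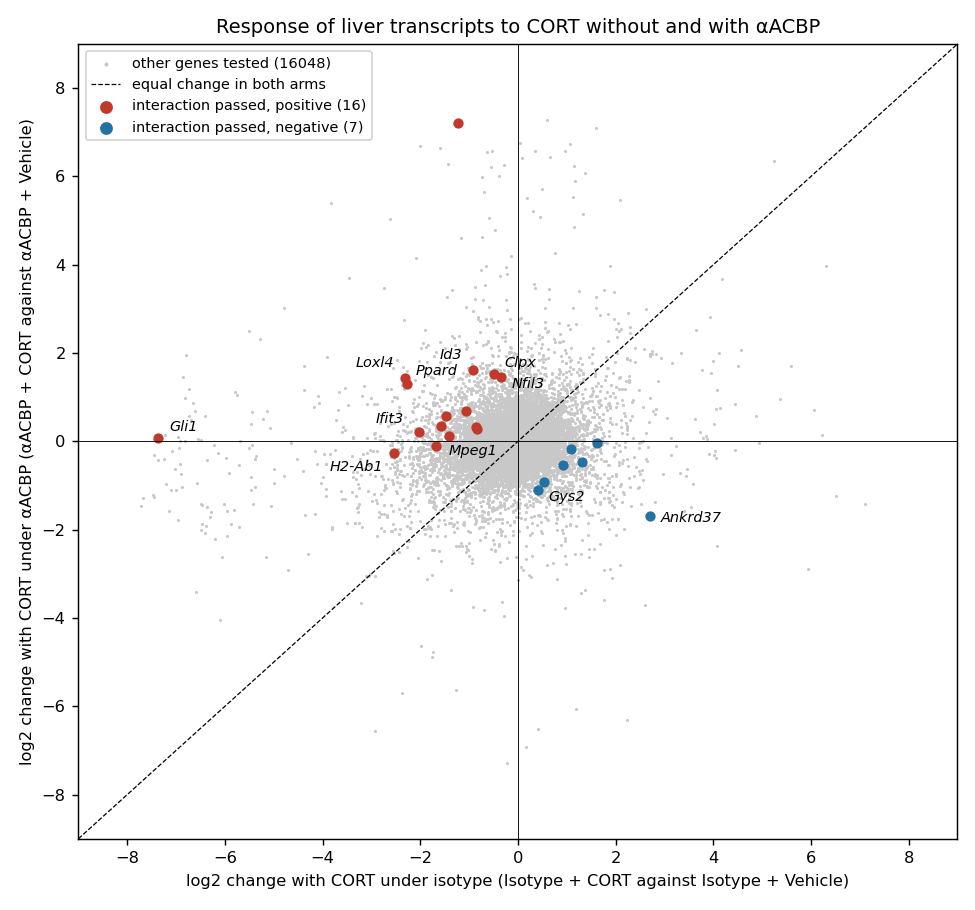
Each point is 1 of the 16071 genes tested, at its log2 change with CORT under isotype (horizontal axis) and under αACBP (vertical axis), and the dashed line marks equal change. The 16 genes with a positive interaction (red) lie above the line and the 7 with a negative one (blue) below it, and 21 of the 23 lie where both arms have opposite signs, which choosing genes by the interaction favours.

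The number of calls rested on single livers. Leaving out 1 liver at a time gave between 6 and 101 calls. It fell below 15 without replicate 1, 2 or 5 of Isotype + Vehicle (12, 9 and 9), 1 or 2 of Isotype + CORT (10 and 12), 1 or 5 of αACBP + Vehicle (9 and 11), or 1, 2, 3 or 4 of αACBP + CORT (13, 8, 6 and 13). It rose above 38 without replicate 3 of Isotype + Vehicle (39), 3, 4 or 5 of Isotype + CORT (52, 61 and 72), 3 or 4 of αACBP + Vehicle (55 and 65), or 5 of αACBP + CORT (101). Without both livers that stood apart, 63 of 16348 genes passed (0.385%), 39 positive and 24 negative, and 21 of the 23 were among them. At the unadjusted p and the log2 limit 5.14% passed in that fit. Ppard, Adck3, Id3, Clpx, Tns2 and Mpeg1 passed in all 20 fits that left out 1 liver and in the 8 other fits across all genes. The other 16 calls that are not predicted genes passed in 7 to 19 of the 20.

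Ppard encodes a nuclear receptor that binds fatty acids and controls genes of lipid use (ENSMUSG00000002250.15, chr17:28451674-28520448, plus strand, GRCm39). Its levels were 61.0, 33.8, 24.4, 73.2 and 29.6 CPM in the Isotype + Vehicle livers and 12.0, 6.31, 10.04, 11.5 and 5.86 CPM in the Isotype + CORT livers. With αACBP they were 13.4, 14.8, 10.3, 11.8 and 16.3 CPM with vehicle and 24.9, 27.0, 48.3, 42.2 and 21.1 CPM with CORT. All CORT livers lay below all vehicle livers under isotype, and all lay above them under αACBP. The log2 change with CORT was -2.28 (SE 0.30, adjusted p = 0.000231) under isotype and 1.29 (SE 0.29, adjusted p = 0.0443) under αACBP. The interaction was 3.57 (SE 0.41, adjusted p = 4.58e-05), with a 95% interval of 2.73 to 4.42. Without CORT, the antibody alone was accompanied by a log2 change of -1.73 (SE 0.29, adjusted p = 0.00238) from Isotype + Vehicle, so that each treatment given singly lowered the transcript.

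Adck3, named Coq8a in the current annotation, encodes a kinase-like protein required for coenzyme Q synthesis in mitochondria (ENSMUSG00000026489.13, chr1:179992803-180029294, minus strand). It stood at 829, 563, 559, 578 and 566 CPM in the Isotype + Vehicle livers and at 294, 304, 329, 351 and 210.4 CPM in the Isotype + CORT livers. Under αACBP it stood at 200.3, 281, 325, 424 and 287 CPM with vehicle and 443, 566, 567, 478 and 398 CPM with CORT. The 5 livers of each single treatment lay below all 5 Isotype + Vehicle livers, while the lowest αACBP + CORT liver lay within the range of the αACBP + Vehicle livers. The interaction was 1.75 (SE 0.27, adjusted p = 0.00281).

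Clpx encodes the unfoldase of the mitochondrial protease ClpXP (ENSMUSG00000015357.10, chr9:65201540-65239568, plus strand). The Isotype + Vehicle livers had 275, 193, 199, 204 and 196 CPM and the Isotype + CORT livers 182, 179, 121, 163 and 116 CPM. In the αACBP + Vehicle livers Clpx was at 64.3, 76.5, 52.2, 109.6 and 56.3 CPM, below every other liver except 1, and in the αACBP + CORT livers at 243, 236, 247, 225 and 84.7 CPM. That exception was replicate 5 of αACBP + CORT, at 84.7 CPM, while the other 4 livers of its group were at 225 CPM or more. CORT raised Clpx under αACBP by a log2 change of 1.53 (SE 0.24, adjusted p = 0.00912), and under isotype the change was -0.49 (SE 0.23, adjusted p = 0.302). The interaction of 2.02 (SE 0.33, adjusted p = 0.00521) became 2.16 (adjusted p = 8.27e-05) without both livers that stood apart. One of these is the low liver of its group for Clpx itself, and leaving it out lowers the spread. Nothing further is therefore read from the smaller p.

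Id1 and Id3 encode small helix-loop-helix proteins that block DNA binding by their partners and are induced by bone morphogenetic protein signalling. Id3 (ENSMUSG00000007872.3, chr4:135870808-135873066, plus strand) was at 114, 156, 93.5, 128 and 165 CPM in the Isotype + Vehicle livers and at 29.3, 77.4, 116, 65.3 and 59.8 CPM in the Isotype + CORT livers. It was at 59.5, 64.1, 67.8, 57.0 and 68.0 CPM in the αACBP + Vehicle livers and at 215, 179, 207, 282 and 91.9 CPM in the αACBP + CORT livers. Under αACBP all livers with CORT lay above all livers with vehicle, and under isotype the groups overlapped. CORT raised Id3 under αACBP by a log2 change of 1.62 (SE 0.27, adjusted p = 0.0101), against -0.91 (SE 0.27, adjusted p = 0.0596) under isotype, and the interaction was 2.54 (SE 0.38, adjusted p = 0.00281). For Id1 the interaction was 2.05 (SE 0.43, adjusted p = 0.0449), with CORT changes of -1.47 (SE 0.31, adjusted p = 0.00735) under isotype and 0.58 (SE 0.30, adjusted p = 0.427) under αACBP. Without both livers that stood apart the adjusted p of Id1 was 0.0622, and with limma's voom it was 0.125.

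**Figure D2:**
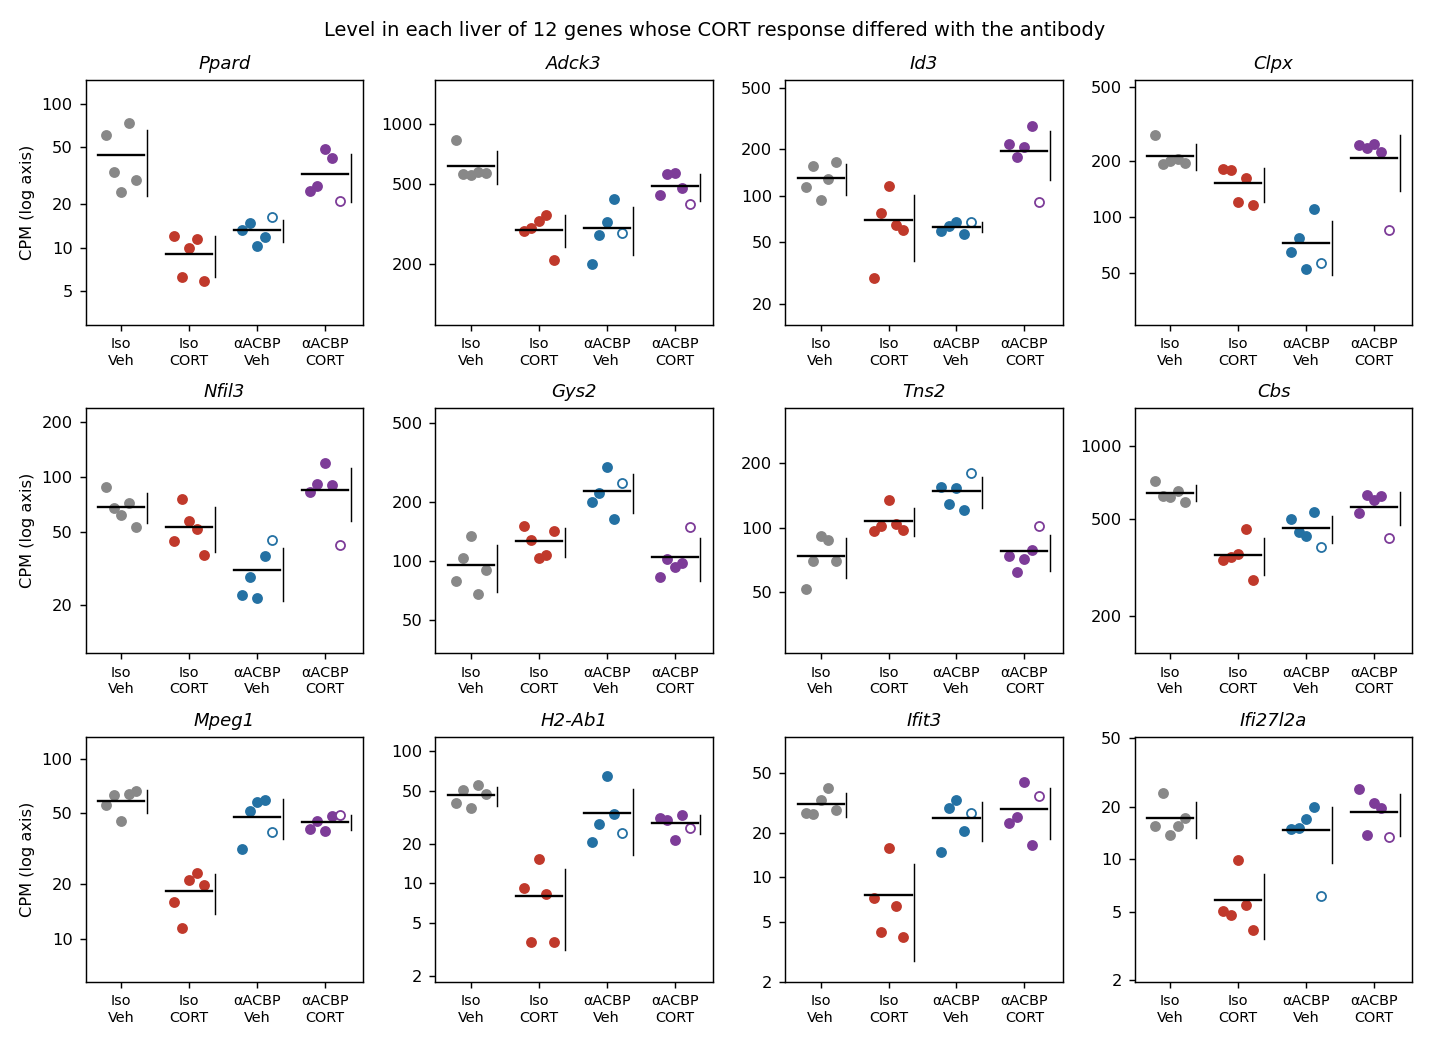
Each panel gives the CPM (log axis) of 1 gene in each of the 20 livers, with a horizontal line at the mean of each group of 5 and a vertical line of ± 1 SD, and open circles mark replicate 5 of both αACBP groups. Ppard and Adck3 are lowest in the groups that received 1 treatment, Clpx and Nfil3 are lowest in the αACBP + Vehicle livers, and Mpeg1, H2-Ab1, Ifit3 and Ifi27l2a are lowest in the Isotype + CORT livers.

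Among genes of antigen presentation, interferon response and macrophages, H2-Ab1, Ifit3, Ifi27l2a and Mpeg1 had positive interactions that passed the adjusted limits. Of the 20 fits that left out 1 liver, Mpeg1 passed in all, Ifit3 in 12, Ifi27l2a in 8 and H2-Ab1 in 7. Most other members of their lists had positive values that did not pass, and Stat2 and Slc40a1, named after their values had been seen, had values below 0. CORT lowered 5 of 10 MHC class II genes, 12 of 28 type I interferon targets and 12 of 27 macrophage genes under isotype, where 1.43% of all genes were called lower, and none of them under αACBP, where 0.0436% of all genes were called lower, so that nothing is read from that 0. H2-Ab1 encodes the beta chain of the MHC class II molecule I-A, which presents antigen to helper T cells (ENSMUSG00000073421.5, chr17:34476663-34488393, plus strand). It measured 40.5, 51.2, 37.1, 56.0 and 47.3 CPM in the Isotype + Vehicle livers and 9.16, 3.60, 15.4, 8.34 and 3.61 CPM in the Isotype + CORT livers. Under αACBP it measured 20.8, 28.1, 64.7, 33.4 and 24.0 CPM with vehicle and 31.6, 30.4, 21.2, 32.8 and 26.5 CPM with CORT. The Isotype + CORT livers all lay below the other 15 livers, and under αACBP the groups overlapped. The log2 change with CORT was -2.53 (SE 0.34, adjusted p = 0.000291) under isotype and -0.26 (SE 0.32, adjusted p = 0.809) under αACBP, with an interaction of 2.27 (SE 0.46, adjusted p = 0.0449). The adjusted p was 0.0669 without both livers that stood apart. H2-Aa, which encodes the partner chain, had an interaction of 2.40 (SE 0.60, adjusted p = 0.0935), and Cd74, the invariant chain, one of 2.21 (SE 0.64, adjusted p = 0.170). Of 10 MHC class II genes tested, 7 passed the unadjusted p and the log2 limit in the positive direction and none in the negative, and H2-Ab1 passed the adjusted p. Without both livers that stood apart 5 passed the unadjusted p. Over all genes 3.07% passed these unadjusted limits in the positive direction and 1.85% in the negative, and 8441 of 16071 had a positive value. Later counts of list members under these limits, or with a positive value, are to be read against these. The list's median interaction was 2.11, against 0.03 over all genes. It was 1.85 with H2-Oa, which had no count in the Isotype + CORT livers, set to the floor. In bulk liver, fewer cells of a type and less RNA per cell cannot be told apart.

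Ifit3, an antiviral protein induced by interferon (ENSMUSG00000074896.3, chr19:34560899-34566443, plus strand), stood at 26.9, 26.9, 33.3, 39.9 and 28.2 CPM in the Isotype + Vehicle livers and at 7.32, 4.30, 15.8, 6.45 and 4.00 CPM in the Isotype + CORT livers. With αACBP it stood at 14.7, 29.2, 33.3, 20.4 and 26.9 CPM in the vehicle livers and 23.2, 25.4, 44.0, 16.5 and 35.1 CPM in the CORT livers. The Isotype + CORT livers lay below all Isotype + Vehicle and all αACBP + CORT livers, and replicate 3 of the group was the highest. The interaction was 2.24 (SE 0.44, adjusted p = 0.0312). The window before its start, printed above, carries the interferon core 3 times, and 16.7% of its 100-base words are shared with its paralog Ifit3b, so that pairs could be counted on either. Ifi27l2a, another interferon-induced gene, ranged over 13.8 to 24.2 CPM in the Isotype + Vehicle livers, 3.93 to 9.94 CPM in the Isotype + CORT livers, 6.13 to 20.2 CPM in the αACBP + Vehicle livers and 13.5 to 25.6 CPM in the αACBP + CORT livers. Its interaction was 1.92 (SE 0.40, adjusted p = 0.0449). These were the genes called among 28 type I interferon targets tested, of which 12 passed the unadjusted p and log2 limit, all positive, and 27 had a positive value. Rsad2, the antiviral enzyme viperin, had an interaction of 2.48 (SE 0.57, adjusted p = 0.0533), and Mx1, an antiviral GTPase, one of 2.46 (SE 0.59, adjusted p = 0.0625). The median over the list was 1.24, from median CORT changes of -1.37 under isotype and -0.07 under αACBP. Without both livers that stood apart, 4 of the 28 passed the adjusted p and 10 the unadjusted one.

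Among 24 interferon-gamma targets, which include guanylate-binding proteins and immunity-related GTPases, 9 passed the unadjusted limits, all positive, and all 24 values were above 0. By edgeR's adjusted p none passed, while 12 were positive at an unadjusted p of 0.05 with no log2 limit. Over all genes, 5.53% were positive and 5.03% negative under this looser rule, and later counts under it are to be read against these shares. DESeq2's Wald test called 3 and voom 2. Over all 16071 genes tested, DESeq2 called 187 (95 positive and 92 negative) and voom 49 (34 positive and 15 negative), against 23 by edgeR. Later counts by DESeq2 and voom are to be read against these. Ifi47 passed without both livers that stood apart, at 1.40 (adjusted p = 0.0268), and in that fit 9 of the 24 passed the unadjusted limits. Ifi47, a GTPase of this family, had an interaction of 1.27 (SE 0.28, adjusted p = 0.0504), Irgm1 one of 0.86 (SE 0.21, adjusted p = 0.0733) and Gbp2b one of 2.90 (SE 0.81, adjusted p = 0.129). Over 16 genes of MHC class I and antigen processing the median was 0.61, and 4 passed the unadjusted limits, all positive, or 2 without both livers that stood apart. H2-Q7 had 1.66 (SE 0.39, adjusted p = 0.0625), H2-D1 1.00 (SE 0.26, adjusted p = 0.0917) and the immunoproteasome subunit Psmb8 1.03 (SE 0.31, adjusted p = 0.163). The class I genes share sequence among themselves, and pairs could be split between them.

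Mpeg1 encodes perforin-2, a pore-forming protein of macrophages (ENSMUSG00000046805.9, chr19:12438114-12442649, plus strand). Its values were 55.1, 62.6, 45.0, 63.4 and 66.4 CPM in the Isotype + Vehicle livers and 16.004, 11.5, 21.3, 23.1 and 19.9 CPM in the Isotype + CORT livers. Under αACBP they were 31.3, 50.9, 57.3, 59.2 and 39.2 CPM with vehicle and 40.5, 45.0, 39.6, 47.8 and 48.6 CPM with CORT. The Isotype + CORT livers lay below all 15 others. The log2 change with CORT was -1.67 (SE 0.19, adjusted p = 2.98e-05) under isotype and -0.10 (SE 0.19, adjusted p = 0.883) under αACBP, and the interaction was 1.57 (SE 0.27, adjusted p = 0.00655). Of 27 Kupffer cell and macrophage genes tested, 16 passed the unadjusted limits, all positive, and 26 had a positive value. C1qa, a chain of complement C1q made by macrophages, had an interaction of 1.56 (SE 0.35, adjusted p = 0.0525), Cybb, the catalytic subunit of the phagocyte oxidase, 2.13 (SE 0.51, adjusted p = 0.0625), and Vsig4, a complement receptor of Kupffer cells, 1.45 (SE 0.38, adjusted p = 0.0923). The list's median was 1.32, from -1.20 under isotype and 0.17 under αACBP. Summed over the 28 entries of this list in the count table, levels were 843 to 1519 CPM in the Isotype + Vehicle livers and 329 to 743 CPM in the Isotype + CORT livers. They were 894 to 1416 CPM in the αACBP + Vehicle livers and 932 to 1302 CPM in the αACBP + CORT livers, with 1 entry at 0 in each group. The sums of the Isotype + CORT livers lay below those of every other group. The part of macrophage content in the interferon and MHC values was not tested. Without both livers that stood apart, 13 of 27 passed the unadjusted limits and 2 the adjusted p.

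Lymphocyte lists had positive medians with wide errors. Over 25 T and NK cell genes the median interaction was 1.25 with 3 past the unadjusted limits, over 22 B cell genes 0.99 with 2, and over 14 dendritic cell genes 0.74 with none. By edgeR, DESeq2 and voom alike 0 members of these lists passed the adjusted p and the log2 limit together. Bst2 of the dendritic cell list passed the adjusted p of DESeq2 (0.00867) and of voom (0.0304). It missed the log2 limit, with interactions of 0.951 and 0.948. At an unadjusted p of 0.05 with no log2 limit 4, 2 and 1 members were positive, against the 5.53% of all genes given above. The median half-width of their 95% intervals was 3.27, 2.59 and 3.16 on the log2 scale. B cell genes summed to 99.9 to 135 CPM in the Isotype + Vehicle, 18.1 to 53.1 CPM in the Isotype + CORT, 58.4 to 156 CPM in the αACBP + Vehicle and 28.4 to 92.7 CPM in the αACBP + CORT livers. T and NK cell genes summed to 57.2 to 76.2, 19.7 to 42.9, 52.8 to 84.7 and 42.2 to 59.1 CPM in the same order. The Isotype + CORT livers had the lowest median sum in both lists. Pirb, an inhibitory receptor of myeloid and B cells, had an interaction of 1.94 (SE 0.42, adjusted p = 0.0504), and Ifi30, a thiol reductase of antigen processing, one of 1.54 (SE 0.34, adjusted p = 0.0504), and neither passed the adjusted limit. Pirb shares 21.5% of its 100-base words with related receptor genes.

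Clock genes formed the list with the lowest median interaction of the 35. Nfil3, a repressor at D-box elements that opposes DBP, TEF and HLF (ENSMUSG00000056749.7, chr13:53121245-53137010, minus strand), was at 88.0, 67.7, 62.3, 71.9 and 53.5 CPM in the Isotype + Vehicle livers and 44.8, 76.2, 57.6, 52.1 and 37.6 CPM in the Isotype + CORT livers. It was at 22.9, 28.5, 21.9, 36.9 and 45.6 CPM in the αACBP + Vehicle livers and 82.8, 91.5, 119, 90.7 and 42.5 CPM in the αACBP + CORT livers. The mean was lowest in the αACBP + Vehicle livers, and replicate 5 of αACBP + CORT fell inside their range. CORT raised Nfil3 under αACBP by 1.45 (SE 0.24, adjusted p = 0.0101) on the log2 scale, against -0.35 (SE 0.23, adjusted p = 0.520) under isotype, and the interaction was 1.80 (SE 0.33, adjusted p = 0.0162). Without replicate 3 of αACBP + CORT its adjusted p was 0.0504.

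Tef, an activator at the same elements, had a negative value. Its levels were 48.5, 104, 118, 132 and 85.8 CPM in the Isotype + Vehicle livers and 137, 179, 189, 132 and 287 CPM in the Isotype + CORT livers. They were 404, 385, 475, 293 and 547 CPM in the αACBP + Vehicle livers and 62.7, 62.9, 114, 86.8 and 328 CPM in the αACBP + CORT livers. The αACBP + Vehicle livers lay above all others except replicate 5 of αACBP + CORT, which reached 328 CPM. The interaction was -2.61 (SE 0.56, adjusted p = 0.0570) with all livers, and -3.15 (adjusted p = 8.27e-05) without both livers that stood apart. Replicate 5 of αACBP + CORT was set apart by the values of these same clock genes, and leaving it out lowers their spread. Nothing further is therefore read from the smaller p. Arntl, which encodes the activator BMAL1, went from 1.90, 6.91, 4.47, 12.0 and 13.2 CPM in the αACBP + Vehicle livers to 20.3, 27.2, 35.5, 27.8 and 10.6 CPM in the αACBP + CORT livers. Under isotype it was 35.3, 31.5, 31.1, 40.6 and 28.2 CPM with vehicle and 21.6, 17.7, 11.4, 25.2 and 5.80 CPM with CORT, where the groups did not overlap but the test was not passed (adjusted p = 0.210). Its interaction was 2.68 (SE 0.60, adjusted p = 0.0607). Ciart, a repressor of BMAL1 and CLOCK, had -3.17 (SE 0.78, adjusted p = 0.0752), with 6.72 to 23.4 CPM in the αACBP + Vehicle livers and 0.899 to 2.94 CPM in the Isotype + Vehicle livers. Dbp, named after its values had been seen, ranged over 5.42 to 23.5 CPM in the Isotype + Vehicle livers, 18.7 to 144 CPM in the Isotype + CORT livers and 151 to 611 CPM in the αACBP + Vehicle livers. In the αACBP + CORT livers Dbp was 9.61, 6.44, 7.98, 6.98 and 195 CPM.

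Of 19 clock genes tested, 3 passed the unadjusted limits in the positive direction (Arntl, Nfil3 and Npas2, the last named after its values had been seen) and 8 in the negative one, and Nfil3 alone passed the adjusted p. Without both livers that stood apart, 6 passed the adjusted p, 2 positive and 4 negative. That count is not read as support, because 1 of these livers was set apart by these same genes. On all livers DESeq2's Wald test called 3 positive and 6 negative, and voom 2 and 2, against the counts over all genes given above. The list's median interaction was -1.03. Its median change was 0.70 with the antibody under vehicle, 0.52 with CORT under isotype and -0.25 with CORT under αACBP. Dbp, Per3, Ciart, Tef, Arntl and Npas2 differed from Isotype + Vehicle by more in the αACBP + Vehicle group than in the Isotype + CORT group, without a test of that difference. Hlf, named after its values had been seen, had a log2 change of 1.21 (SE 0.21, adjusted p = 0.000980) with CORT under isotype and of 0.36 (SE 0.20, adjusted p = 0.332) with the antibody under vehicle. The part of these clock values in the interactions of other genes was not tested. The study's methods give no hour of liver collection, so that a difference in hour between livers could not be examined.

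**Figure D3:**
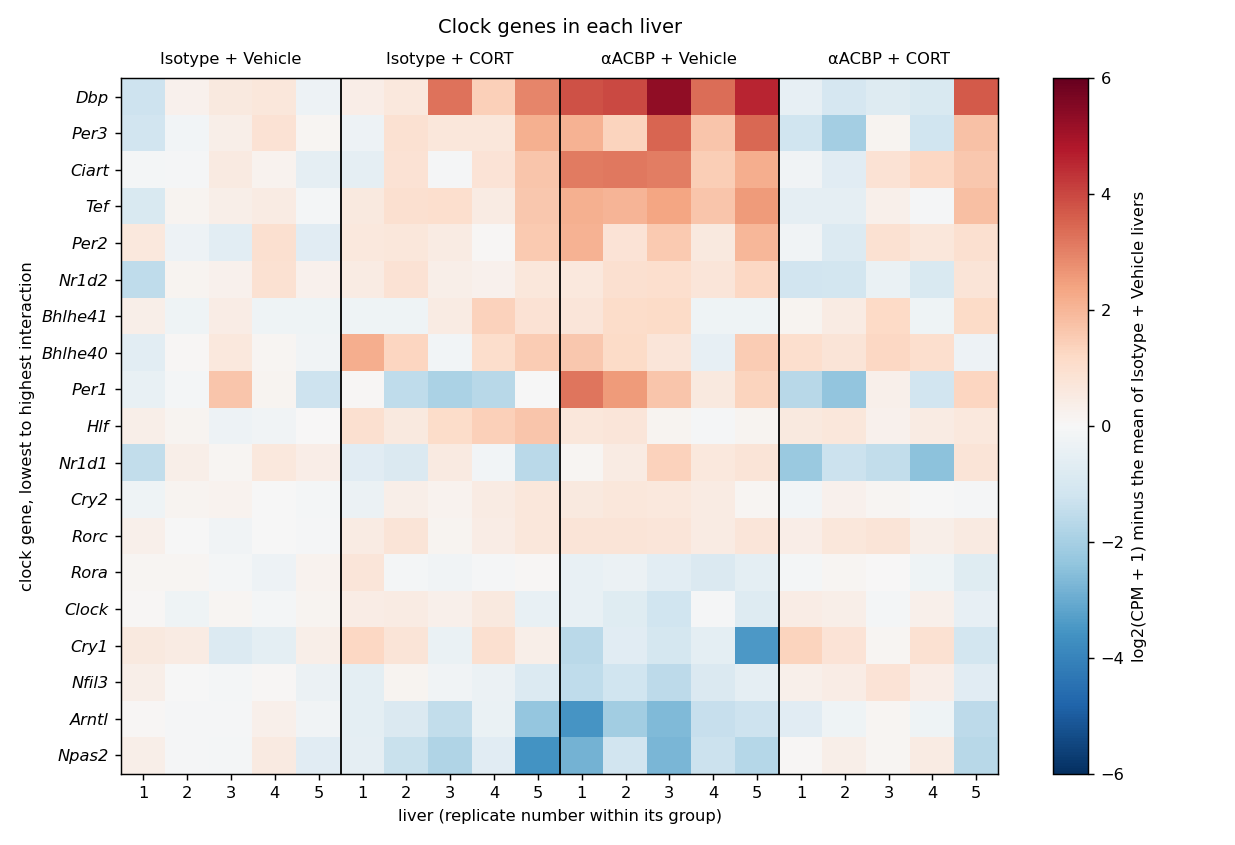
Rows are the 19 clock genes tested, ordered by interaction, and columns are the 20 livers in their groups, with colour for log2(CPM + 1) minus the mean of the Isotype + Vehicle livers. The αACBP + Vehicle livers are high in Dbp, Per3, Ciart and Tef and low in Arntl and Npas2, and within the αACBP + CORT group replicate 5 is also high in Dbp, Per3 and Tef and low in Arntl and Npas2, while replicates 1 to 4 are not.

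Among genes of metabolism, Gys2, which encodes the glycogen synthase of liver (ENSMUSG00000030244.7, chr6:142368339-142418841, minus strand), had a negative interaction. It measured 78.7, 103, 134, 67.8 and 89.9 CPM in the Isotype + Vehicle livers and 150.1, 127, 103, 107 and 142 CPM in the Isotype + CORT livers. Under αACBP it measured 199, 222, 298, 163 and 247 CPM with vehicle and 82.3, 102, 93.1, 97.9 and 149 CPM with CORT. The αACBP + Vehicle livers lay above all 15 others. CORT lowered Gys2 under αACBP, with a log2 change of -1.11 (SE 0.20, adjusted p = 0.0101), and the change under isotype was 0.41 (SE 0.20, adjusted p = 0.307). The interaction was -1.52 (SE 0.28, adjusted p = 0.0162), and without replicate 3 of αACBP + CORT its adjusted p was 0.0504.

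Cbs encodes cystathionine beta-synthase, which commits homocysteine to cysteine synthesis. Its level was 642 ± 48.8 CPM (SD, n = 5) in the Isotype + Vehicle livers, 358 ± 63.1 CPM (SD, n = 5) in the Isotype + CORT livers, 459 ± 59.9 CPM (SD, n = 5) in the αACBP + Vehicle livers and 561 ± 87.9 CPM (SD, n = 5) in the αACBP + CORT livers. The interaction was 1.13 (SE 0.23, adjusted p = 0.0312), while neither arm reached the log2 limit, with a CORT change under isotype of -0.84 (SE 0.16, adjusted p = 0.00266). Slc6a9, a glycine transporter, rose with CORT under isotype, where vehicle livers ranged over 17.2 to 24.5 CPM and CORT livers over 43.2 to 85.1 CPM. Under αACBP it was at 30.8 to 79.8 CPM with vehicle and 42.1 to 75.0 CPM with CORT, and its interaction was -1.66 (SE 0.32, adjusted p = 0.0253). B4galt2 and other genes on the opposite strand overlap 33.8% of its exonic sequence. Vwa8, a mitochondrial ATPase, went from 132 ± 14.5 to 280.1 ± 78.8 CPM with CORT under isotype and from 229 ± 33.2 to 202 ± 32.4 CPM under αACBP (SD, n = 5 each), with an interaction of -1.27 (SE 0.26, adjusted p = 0.0335). Slc12a4, a potassium-chloride cotransporter, went from 16.2 ± 2.84 to 30.9 ± 7.64 CPM under isotype and from 35.7 ± 10.1 to 24.6 ± 5.80 CPM under αACBP (SD, n = 5 each), with an interaction of -1.47 (SE 0.30, adjusted p = 0.0335). With voom the adjusted p was 0.0505 for Slc6a9 and 0.0514 for Vwa8 and Slc12a4.

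Lists of lipid metabolism had medians nearer to 0. The median interaction was 0.31 over 21 genes of fatty acid synthesis, -0.24 over 37 of triglyceride synthesis, uptake and storage, 0.07 over 25 of cholesterol synthesis and -0.26 over 31 of fatty acid oxidation and PPARα targets. By edgeR's adjusted p 0 genes of these lists passed. DESeq2's Wald test called 1 gene of fatty acid synthesis and 1 of the triglyceride list, and voom 0. At an unadjusted p of 0.05 with no log2 limit, the counts higher and lower were 4 and 0 for fatty acid synthesis, 5 and 7 for the triglyceride list, 4 and 0 for cholesterol and 0 and 3 for oxidation, against the shares of all genes given above. Agpat2, an acyltransferase of triglyceride synthesis, had an interaction of 1.14 (SE 0.31, adjusted p = 0.109), which passed without both livers that stood apart at 1.28 (adjusted p = 0.0398), and Lpin2, a phosphatidate phosphatase, one of -0.96 (SE 0.26, adjusted p = 0.105). Fads1, a fatty acid desaturase, had 1.02 (SE 0.28, adjusted p = 0.105). Cyp4a31, an omega-hydroxylase induced through PPARα, had -1.82 (SE 0.57, adjusted p = 0.187), with CORT changes of 2.30 (SE 0.42, adjusted p = 0.00206) under isotype and 0.47 (SE 0.40, adjusted p = 0.694) under αACBP. The 95% interval of the interaction extended to either side by a median of 0.76, 0.68, 0.88 and 0.67 in these lists, in the order given.

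Nr0b2, the corepressor SHP that restrains bile acid synthesis, had an interaction of 1.67 (SE 0.37, adjusted p = 0.0525), in a list of 20 genes of bile acid synthesis and transport with a median of 0.19. Agxt, which detoxifies glyoxylate, had 1.51 (SE 0.34, adjusted p = 0.0525) and Ddc, aromatic amino acid decarboxylase, 1.35 (SE 0.30, adjusted p = 0.0504), in a list of 31 genes of amino acid breakdown with a median of 0.21. None of the 3 passed the adjusted limit with all livers. Nr0b2 passed without both livers that stood apart at 1.96 (adjusted p = 0.0210) and so did Ddc at 1.34 (adjusted p = 0.0467), and Agxt, at 1.48 (adjusted p = 0.0833), did not. Ddc was at 18.9 to 47.8 CPM in the αACBP + Vehicle livers and at 59.1 to 91.9 CPM in the Isotype + Vehicle livers, without overlap. Gstm7, a glutathione transferase, had an interaction of 1.33 (SE 0.29, adjusted p = 0.0504). On the negative side Mtor, the kinase that senses nutrients, had -1.19 (SE 0.26, adjusted p = 0.0504) and Tcf3, a helix-loop-helix partner of the Id proteins, -1.18 (SE 0.26, adjusted p = 0.0504). Tomm40l had -1.07 (SE 0.23, adjusted p = 0.0504), and 76.5% of its exon bases lie opposite Apoa2 and Nr1i3, so that without strand their reads could not be told apart. With all livers Gstm7, Mtor, Tcf3 and Tomm40l also missed the adjusted limit. Mtor passed without both livers that stood apart at -1.30 (adjusted p = 0.0210), as did Tcf3 at -1.27 (adjusted p = 0.0342) and Gstm7 at 1.32 (adjusted p = 0.0474), and Tomm40l did not (adjusted p = 0.0584).

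**Figure D4:**
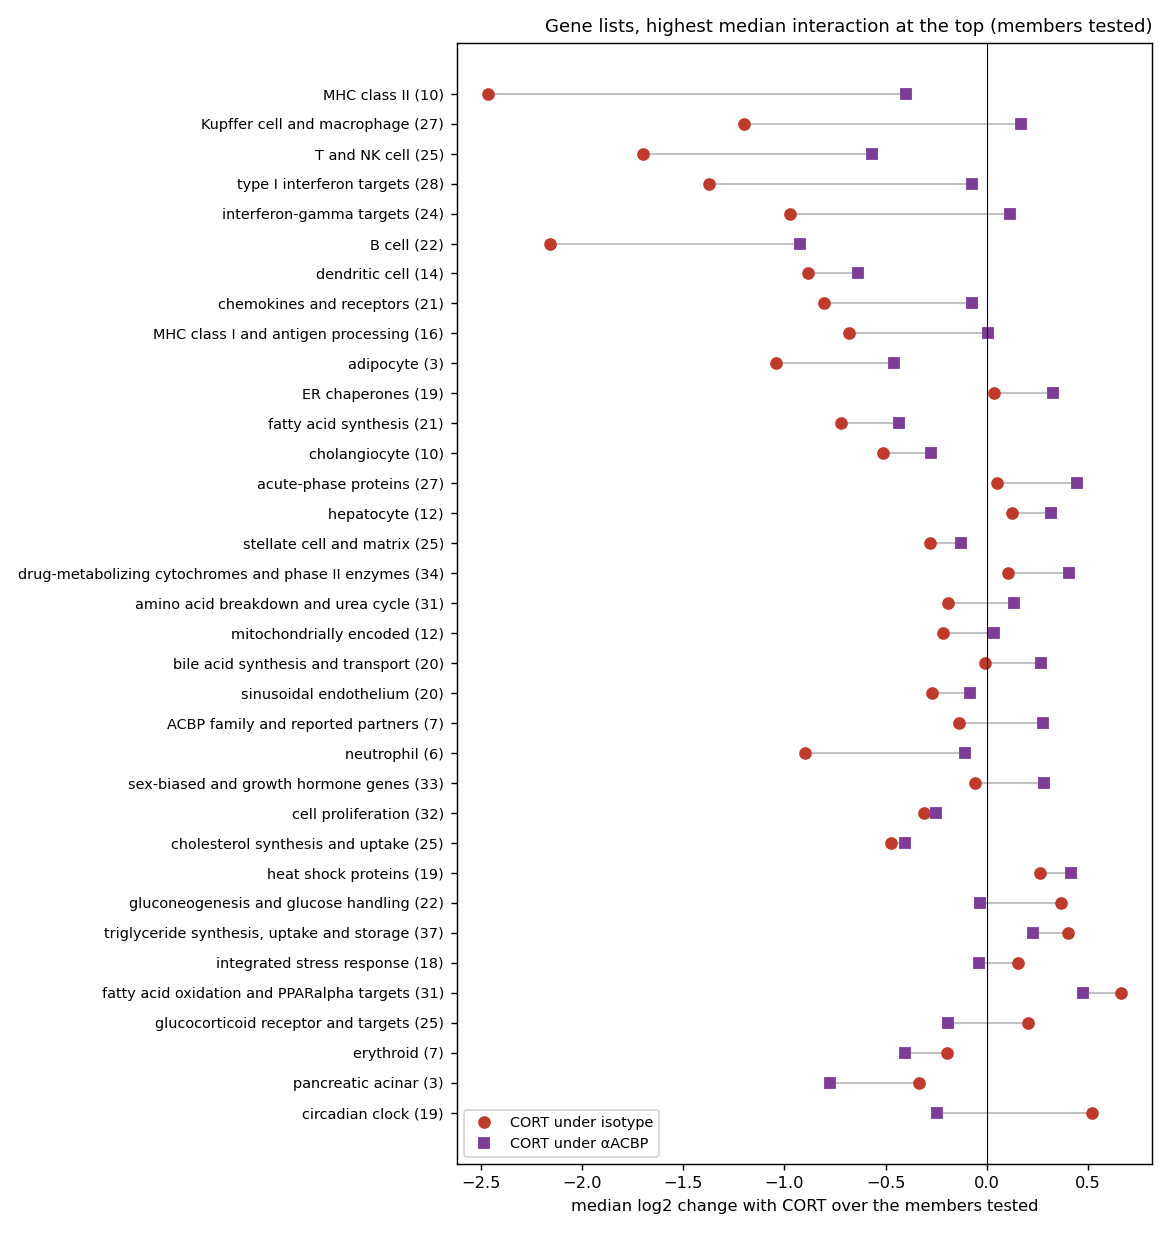
Circles give the median log2 change with CORT under isotype and squares that under αACBP over the members tested of 35 lists, ordered by median interaction from the top down, with the number of members in brackets. The widest shifts are those of MHC class II, macrophage, lymphocyte and interferon lists, and circadian clock genes stand at the other end, while lists of lipid, cholesterol and bile acid metabolism differ little between arms.

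Of 25 stellate cell and matrix genes tested, Col4a1 alone had an interaction that passed the adjusted limits. Col4a1, a chain of basement membrane collagen, was at 15.6 to 36.5 CPM in the Isotype + Vehicle livers, 6.36 to 12.4 CPM in the Isotype + CORT livers, 12.3 to 20.2 CPM in the αACBP + Vehicle livers and 13.1 to 18.9 CPM in the αACBP + CORT livers. Its interaction was 1.52 (SE 0.33, adjusted p = 0.0480). Of the 25, 5 passed the unadjusted limits, all positive, among them Col4a2 with 1.04 (SE 0.32, adjusted p = 0.175), Col14a1 with 1.05 (SE 0.29, adjusted p = 0.105) and Col3a1 with 1.13 (SE 0.37, adjusted p = 0.205), and the list's median was 0.23. Loxl4, which cross-links collagen, fell with CORT under isotype, where vehicle livers ranged over 8.63 to 12.6 CPM and CORT livers over 0.193 to 3.95 CPM. Under αACBP it was at 0.905 to 6.42 CPM with vehicle and 3.40 to 16.1 CPM with CORT, with overlap, and its interaction was 3.74 (SE 0.74, adjusted p = 0.0312). Gli1, the transcription factor at the end of Hedgehog signalling, had no count in any Isotype + CORT liver. It was at 0.843, 0.551, 0.355, 2.94 and 1.26 CPM in the Isotype + Vehicle livers, 0.670 to 1.87 CPM in the αACBP + Vehicle livers and 0.940 to 1.72 CPM in the αACBP + CORT livers. Against the floor of 3 counts per liver, its mean was at least 5.80-fold higher in the Isotype + Vehicle group and at least 6.82-fold higher in the αACBP + CORT group than in the Isotype + CORT group. Its interaction passed (adjusted p = 0.0480), but at these few counts it did not pass with voom (adjusted p = 0.110).

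Tns2, a tensin at focal adhesions, had an interaction of -1.46 (SE 0.24, adjusted p = 0.00521). It was at 51.9, 69.8, 91.4, 87.5 and 70.1 CPM in the Isotype + Vehicle livers and 96.8, 103, 135, 104 and 98.2 CPM in the Isotype + CORT livers, and at 155, 129.9, 154, 121 and 181 CPM and 73.8, 62.2, 71.9, 79.0 and 102 CPM in the αACBP livers with vehicle and with CORT. The αACBP + CORT livers lay below the αACBP + Vehicle livers, and under isotype CORT livers lay above vehicle livers, in each case without overlap, although neither arm reached the log2 limit. Its change with the antibody under vehicle was 1.00 (SE 0.17, adjusted p = 0.00246), just under that limit before rounding. Vwce, a secreted protein with von Willebrand factor type C domains, went from 64.7 ± 11.1 to 162 ± 68.8 CPM under isotype and from 185 ± 45.7 to 134 ± 22.6 CPM under αACBP (SD, n = 5 each), with an interaction of -1.79 (SE 0.33, adjusted p = 0.0202). Ankrd37, a gene induced in low oxygen, had -4.40 (SE 0.88, adjusted p = 0.0312), but 81.4% of its exon bases lie opposite Lrp2bp and Ufsp2. It was at 23.4, 3.75, 3.20, 1.69 and 12.5 CPM in the Isotype + CORT livers and 0.459 to 1.16 CPM in the αACBP + CORT livers, and with voom its adjusted p was 0.204. The calls also held a predicted gene with no count in the αACBP + Vehicle livers.

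Fkbp5, a direct target of the glucocorticoid receptor (ENSMUSG00000024222.16, chr17:28618058-28737521, minus strand), was at 33.2, 45.3, 40.8, 26.1 and 51.1 CPM in the Isotype + Vehicle livers and 137, 142, 67.6, 177 and 117 CPM in the Isotype + CORT livers. It was at 86.7, 66.4, 36.8, 39.2 and 85.9 CPM in the αACBP + Vehicle livers and 77.2, 55.0, 92.2, 100.2 and 59.2 CPM in the αACBP + CORT livers. Under isotype all CORT livers lay above all vehicle livers, and under αACBP the groups overlapped. The log2 change with CORT was 1.70 (SE 0.26, adjusted p = 0.000722) under isotype and 0.28 (SE 0.26, adjusted p = 0.720) under αACBP, and the interaction of -1.42 (SE 0.37, adjusted p = 0.0935) missed the adjusted limit. Among 25 receptor targets tested, 5 were negative and 1 positive past the unadjusted limits, and the median was -0.28. Mt2, a metallothionein, had -2.07 (SE 0.54, adjusted p = 0.108), with 82.4% of its exon bases opposite a predicted gene, and Gadd45b, a stress-induced regulator of growth arrest, had -3.54 (SE 1.07, adjusted p = 0.196). By edgeR's adjusted p 0 of the 25 passed, at an unadjusted p of 0.05 with no log2 limit 1 was positive and 6 negative, against the shares of all genes given above, and DESeq2's Wald test called 1 and 4 and voom 0. Mt2 passed without both livers that stood apart, at -2.66 (adjusted p = 0.00459). Dbi, which encodes ACBP, had an interaction of 0.57 (SE 0.29, adjusted p = 0.505), from 891 ± 155 and 781 ± 163 CPM under isotype and 585 ± 167 and 763 ± 124 CPM under αACBP (vehicle and CORT, SD, n = 5 each). The antibody binds the protein, so that the transcript does not check its action.

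**Figure D5:**
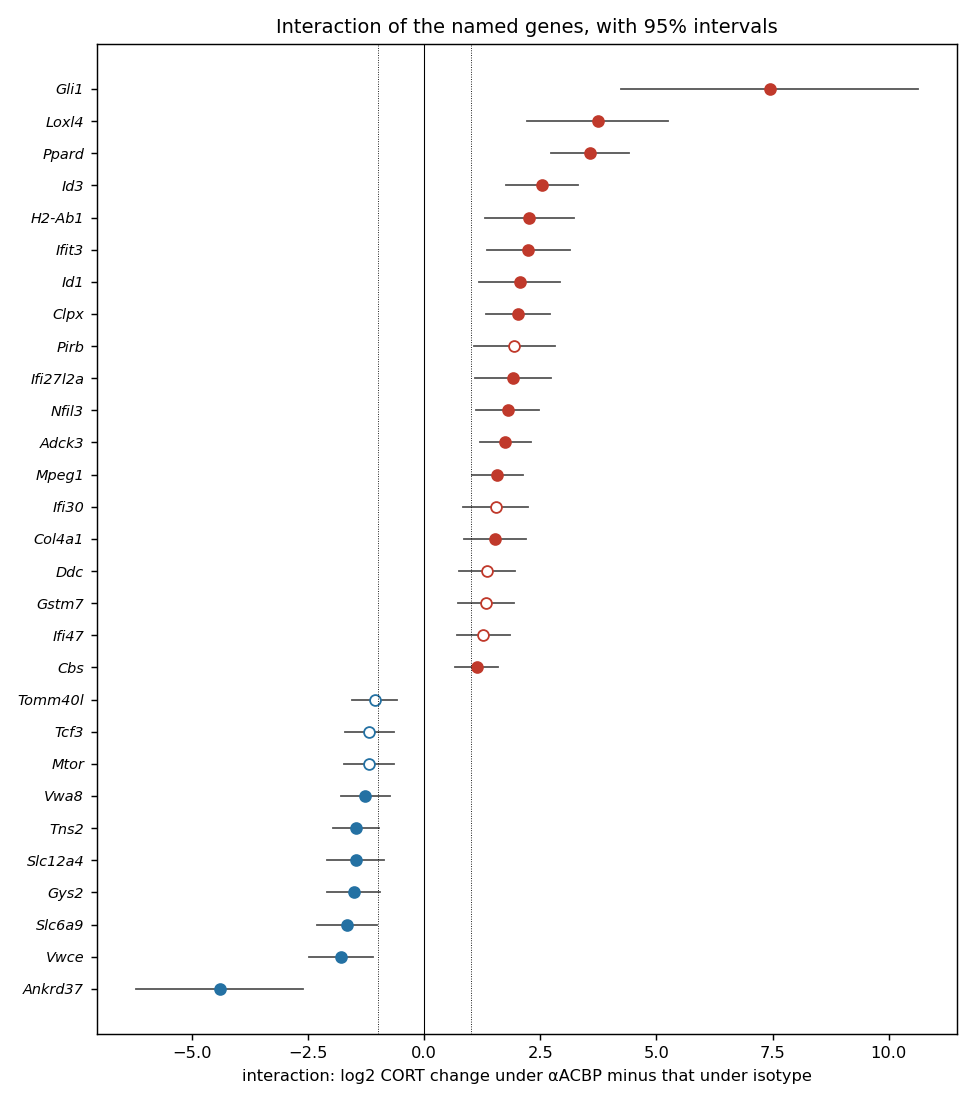
Points give the interaction of 29 named genes with its 95% interval on the log2 scale, filled where the adjusted limit was passed and open where it was not, and dotted lines mark values of 1 and -1. The interval of Gli1 spans 4.23 to 10.63, and that of Cbs spans 0.67 to 1.60. The Isotype + CORT livers hold no count of Gli1, and its fitted value therefore depends on the prior count. For that reason its interval does not measure the uncertainty of the effect.

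Sorted by which treatment given singly had changed them from Isotype + Vehicle, the 23 genes fell into 4 sets. CORT under isotype passed for 9 and the antibody under vehicle did not. These were Ankrd37, Col4a1, Gli1, H2-Ab1, Ifi27l2a, Ifit3, Loxl4, Mpeg1 and Vwa8, which hold all of the called interferon, MHC and macrophage genes. The antibody under vehicle passed for 6 where CORT under isotype did not, among them Clpx, Gys2, Id3, Nfil3 and Slc12a4. Both passed for Adck3, Id1, Ppard, Slc6a9 and Vwce, and neither for 3, among them Cbs and Tns2, whose changes given above missed only the log2 limit. The 2 single-treatment comparisons share the Isotype + Vehicle livers, and their values are therefore only set side by side. Over all genes the antibody changed 209 under vehicle (1.3%), 110 higher (0.684%) and 99 lower (0.616%), and 96 under CORT (0.597%), 81 higher (0.504%) and 15 lower (0.0933%). For Adck3 the changes were -1.06 with CORT alone, -1.03 with the antibody alone and 0.72 with the antibody under CORT. For Slc6a9 they were 1.63, 1.45 and -0.20, and for Vwce 1.32, 1.52 and -0.27.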

How the data were processed

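Liver RNA of 20 mice was sequenced by paired-end RNA-seq, and the deposited table holds raw counts per gene and liver. The authors aligned reads with HISAT2 and counted with HTSeq-count in union mode, with reads on several features included. The labels name the build mm10 and the study's methods GRCm39, and the annotation release and strand setting are not given in the sources used here. Lines that name no gene were left out. On the counts, edgeR 4.0.16 in R 4.3.3 (filterByExpr, TMM, quasi-likelihood test) was fitted once to all 4 groups without covariates. The interaction, both CORT contrasts and both antibody contrasts were taken from this fit. A gene was called at an adjusted p of at most 0.05 and an absolute log2 value of at least 1. Samples were grouped by their labels. All genes called were named except predicted ones and 1 that is not reported here, then genes past the unadjusted limits with a mean of at least 1 CPM in order of p up to 30, up to 4 members with the smallest p of each of 35 gene lists, and Dbi and Fkbp5. The members and lists were chosen with earlier results of these data known. Alternatives were other scalings and filters, DESeq2 1.42.0, voom of limma 3.58.1, the replicate number as a block, and each liver left out. The fit was tested on simulated data of 15439 genes, where edgeR recovered 16.4%, 58.2% and 72.7% of interactions of log2 size 1, 2 and 3, with 2% false calls. In the same data 11.8% of DESeq2's calls and 0% of voom's were false. Only the αACBP + CORT group was changed there, in genes with a mean of at least 1 CPM. No simulated liver stood apart and no single treatment had an effect, so that these shares do not carry over to the calls made here. Same-numbered livers of different groups are separate mice, and their deviations correlated between -0.10 and 0.10 over 30 pairs, so that the numbers did not pair them. Gene coordinates and overlaps come from GENCODE M39 and upstream sequences from RefSeq, which held 15 of the 22 called genes that are not predicted.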

Additional observations from a re-analysis of the deposited data

Results flagged for a closer look

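The interaction tests a difference of the CORT effect between antibodies, and its 23 calls are flagged for that reason. The log2 values were 3.57 for Ppard, 1.75 for Adck3, 2.54 for Id3, 2.02 for Clpx, -1.46 for Tns2, 1.57 for Mpeg1, -1.52 for Gys2 and 1.80 for Nfil3. They were -1.79 for Vwce, -1.66 for Slc6a9, 2.24 for Ifit3, 1.13 for Cbs, -4.40 for Ankrd37, 3.74 for Loxl4, -1.27 for Vwa8 and -1.47 for Slc12a4. They were 1.92 for Ifi27l2a, 2.05 for Id1, 2.27 for H2-Ab1, 7.43 for Gli1 and 1.52 for Col4a1.

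Single livers far from the others of their group were sought in 178 sets of 5 values, as the gap to the nearest liver over the range of the group, and 21 passed Dixon's limit of 0.71. Chance flags about 1 in 20 groups. Replicate 5 of αACBP + CORT was apart for Clpx (0.859), Tef (0.807) and Gys2 (0.712), and replicate 5 of αACBP + Vehicle for Dbi (0.883), Col4a1 (0.742) and the TMM factor (0.732). Replicate 3 of αACBP + Vehicle was apart for H2-Ab1 (0.714), H2-Aa (0.717), Cd74 (0.782) and Tcf3 (0.736), and replicate 4 for Ddc (0.716). Replicate 3 of Isotype + CORT was apart for Tns2 (0.821), Mx1 (0.818), Ifi27l2a (0.743) and Ifit3 (0.719), and replicate 2 for Vsig4 (0.779). Replicate 1 of Isotype + Vehicle was apart for Adck3 (0.927), Clpx (0.868) and Id1 (0.855), and replicate 4 for Dbi (0.791). Replicate 3 of αACBP + CORT was apart for Ankrd37 (0.865).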

How the results depend on the processing

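Against 23 interaction calls, DESeq2 size factors gave 35, library sizes without the 20 most abundant genes 41, no filter beyond 1 count 53, at least 10 counts in every liver 60, DESeq2's Wald test 187 (95 positive and 92 negative), voom 49, the unadjusted p 791 and leaving out replicate 5 of both αACBP groups, a choice made after seeing the data, 63. Leaving out 1 liver gave 6 to 101. CORT calls under isotype numbered 312, against 527 with DESeq2 and 205 to 421 with 1 liver left out, where 205 was without replicate 2 of Isotype + Vehicle. CORT calls under αACBP numbered 34, against 112 with DESeq2, 155 with voom, 104 without replicate 5 of both αACBP groups and 5 to 153 with 1 liver left out. They moved by over 1.5 times without replicate 5 of Isotype + CORT (52), 1, 3 or 5 of αACBP + Vehicle (13, 5 and 11), or 1, 2, 4 or 5 of αACBP + CORT (6, 8, 14 and 153). With the replicate block 20 interactions were called, 14 of them among the 23, and the numbers are not taken to pair the livers. Of the 22 calls that are not predicted genes, 16 passed with both DESeq2 and voom. Signs reversed for Hspa4l without replicate 5 of both αACBP groups (0.049), with voom for Fgf21 (0.76), Krt19 (0.27) and Ctrl (1.85), and for Ctrl between -1.22 and 0.16 with 1 liver left out. None of these was called, and the cause was not tested. Medians of 25 of 35 lists kept their sign in all 28 alternatives. The median half-width of the 95% intervals over all genes tested was 0.86, each taken around the gene's own interaction.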

Other observations

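Acute-phase genes, which the liver secretes in inflammation, had a median interaction of 0.27 over 27 genes, with 2 positive and 2 negative past the unadjusted limits. Lcn2, an iron-binding protein of this list and of the neutrophil list, was at 22.8, 18.2, 16.3, 14.7 and 19.9 CPM in the Isotype + Vehicle livers and at 301, 349.8, 42.8, 547 and 303 CPM in the Isotype + CORT livers. It was at 204, 24.8, 118, 292 and 33.1 CPM in the αACBP + Vehicle livers and at 289.5, 489, 274, 233 and 218 CPM in the αACBP + CORT livers. CORT raised it under isotype by 4.07 (SE 0.69, adjusted p = 0.00358) on the log2 scale, and the interaction was -2.91 (SE 0.88, adjusted p = 0.196). Chemokines and their receptors had a median interaction of 0.69 over 21 genes, with 3 positive past the unadjusted limits. Genes of the integrated stress response had a median of -0.24 over 18 genes, with 2 negative, ER chaperones one of 0.33 over 19, and heat shock proteins one of 0.02 over 19, with none in either direction. Sex-biased genes had 0.15 over 33, drug-metabolizing enzymes 0.23 over 34 and proliferation genes 0.15 over 32. The sinusoidal endothelium list had 0.19 over 20 genes, cholangiocytes 0.28 over 10, and mitochondrially encoded genes 0.20 over 12.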
